A study of Mus musculus with 12 samples.

Results

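The 8 podocyte actin cytoskeleton genes described here were taken by symbol from the 26264 genes of the deposited count tables. They comprised the actin crosslinkers Synpo and Actn4, the formin Inf2, the GTPase-activating protein gene Arhgap24, the myosins Myh9 and Myo1e, and the filament-associated genes Nes and Nebl. All 8 symbols were found, and all 8 were among the 17002 genes that passed the filter on low counts. RNA-seq was performed on glomerulus-enriched kidney preparations of male mice, obtained at 8 weeks of age, of 2 sublines of the BALB/c inbred strain, named BALB/cAjcl (here AJcl) and BALB/cByJcl (here ByJcl). The drug given was adriamycin (ADR, doxorubicin hydrochloride), an anthracycline that injures podocytes in susceptible mice. Each substrain was sampled at baseline, without ADR, and at Day 5 after a single retro-orbital intravenous injection of 10 mg/kg ADR. Each of these groups had 3 libraries, 12 in all, and the labels name no engineered allele in any of them. AJcl Day 5 replicate 1 was excluded from the fits for reduced glomerular purity, as the study's methods describe. This left 11 libraries and 2 in the AJcl Day 5 group. The study's results call the baseline mice untreated, whereas its methods give control mice an equal volume of saline, and this was not resolved here. Baseline counts formed a separate table, so ADR and the table cannot be told apart. If the baseline mice had no injection, ADR and the injection itself cannot be told apart either.

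Podocytes are the epithelial cells that wrap the glomerular capillaries with interdigitating foot processes. Each foot process is held in shape by a contractile actin bundle that is coupled to the slit diaphragm and to the basement membrane, and loss of this organization (effacement) accompanies proteinuria. Small GTPases, formins, crosslinkers and myosins set the assembly and tension of the bundle. Inherited variants of ACTN4, INF2, MYO1E, MYH9 and ARHGAP24 have been linked to human glomerular disease. In bulk glomerular RNA, fewer podocytes and less RNA per podocyte cannot be told apart, and Actn4 and Myh9 are also transcribed in other glomerular cells.

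Total counts ranged from 42198416 to 54687045 per library, and the 8 genes had between 7016 (Nebl) and 155766 (Synpo) counts in a library. Levels are given as CPM, counts scaled to library size after TMM normalization. Between 77.08% and 82.85% of the counts from 1 to 49 were even numbers in each library. Whether both reads of a pair were counted is not given in the sources used here, so a count may be a read and not a fragment, and the number of independent molecules behind a value may be smaller than its count. Podocyte identity was checked with 13 reference genes that are not among the 8, and their summed level was 10969 to 23422 CPM in the 11 libraries. The summed level of 12 proximal tubule markers ranged from 1081 to 7322 CPM in the same libraries and was 10604 CPM in the excluded library, where the podocyte sum was 12190 CPM. All 12 proximal tubule markers and all 7 distal nephron markers had lower estimates in ByJcl than in AJcl at baseline and at Day 5, with none passing the test, and their part in the results below was not tested.

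RefSeq promoter windows (250 bases before to 50 bases after a transcript start, GRCm38.p6, a different build from that of the counts) were found for 6 of the 8 genes, 10 windows in all; Synpo and Arhgap24 had no entry. Inf2 and Nes, with higher estimates at Day 5 in ByJcl, are shown beside Myo1e and the upstream window of Nebl, with lower estimates. Capitals mark GC boxes (GGGCGG on either strand) and, in Myo1e, a CArG box, the element bound by serum response factor. The windows are Inf2 at chr12:112588517-112588816 (plus strand), Nes at chr3:87970843-87971142 (plus strand), Myo1e at chr9:70207100-70207399 (plus strand) and Nebl at chr2:17731085-17731384 (minus strand).
Inf2: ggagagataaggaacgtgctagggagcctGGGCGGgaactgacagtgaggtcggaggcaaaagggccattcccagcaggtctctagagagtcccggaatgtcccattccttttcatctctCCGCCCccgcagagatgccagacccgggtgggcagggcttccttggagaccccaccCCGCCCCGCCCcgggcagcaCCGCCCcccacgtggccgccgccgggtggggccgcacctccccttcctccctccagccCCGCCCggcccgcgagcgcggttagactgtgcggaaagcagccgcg
Nes: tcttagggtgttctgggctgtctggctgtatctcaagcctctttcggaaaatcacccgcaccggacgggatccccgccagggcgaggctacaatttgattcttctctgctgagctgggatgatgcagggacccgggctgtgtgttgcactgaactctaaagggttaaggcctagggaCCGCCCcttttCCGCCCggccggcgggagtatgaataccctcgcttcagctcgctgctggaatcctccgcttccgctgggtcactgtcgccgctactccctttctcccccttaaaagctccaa
Myo1e: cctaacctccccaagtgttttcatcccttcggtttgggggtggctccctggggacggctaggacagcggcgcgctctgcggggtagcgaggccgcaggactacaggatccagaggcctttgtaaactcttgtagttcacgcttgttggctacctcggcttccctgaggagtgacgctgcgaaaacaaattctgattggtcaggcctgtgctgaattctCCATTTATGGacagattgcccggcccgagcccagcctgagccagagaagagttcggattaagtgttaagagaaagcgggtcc
Nebl: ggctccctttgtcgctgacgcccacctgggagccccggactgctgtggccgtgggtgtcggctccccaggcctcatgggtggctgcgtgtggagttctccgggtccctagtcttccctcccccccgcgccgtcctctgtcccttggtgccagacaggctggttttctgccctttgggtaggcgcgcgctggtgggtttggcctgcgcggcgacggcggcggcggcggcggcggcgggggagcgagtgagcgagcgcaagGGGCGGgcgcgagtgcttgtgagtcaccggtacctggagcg
The Inf2 window held 6 GC boxes, some of them overlapping, with 69.7% G or C and 25 CpG dinucleotides. The Nes window held 2 GC boxes and 18 CpG dinucleotides, the Nebl window held 1 GC box and 32 CpG dinucleotides, and the Myo1e window held 0 GC boxes, 16 CpG dinucleotides and 1 CArG box. GC boxes were present in 35.7% of all 32851 mouse windows of this length and CArG boxes in 1.63%. Other motifs were searched on both strands, and overlaps between motifs were allowed. CANNTG (E-box) was found in 72.3% of all windows, GGAATG (TEAD) in 14.7% and GCGGGGGCG (WT1/EGR) in 2.91%. The windows of Actn4 and Myh9, not printed, held 4 and 6 GC boxes, and another Nebl window, at chr2:17462807-17463106 (minus strand) and not printed, also held 1 CArG box. The Inf2 window held 3 TEAD matches and 1 WT1/EGR match. A match is a string of letters and not a measured binding site, and binding was not measured in these libraries.

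After ADR, the 8 genes divided by direction in ByJcl. Synpo, Arhgap24 and Nebl fell, to between 0.344 and 0.470 of their baseline level, and Inf2 rose 1.52-fold. Nes, Myh9 and Actn4 had higher estimates and Myo1e a lower estimate without passing the test. These 4 calls of 8 (1 higher, 3 lower) stand beside 1800 of 17002 genes called in this contrast, 10.6% (5.75% higher and 4.83% lower). In AJcl none of the 8 passed the test, beside 0.312% of all genes (0.306% higher and 0.00588% lower). An unadjusted p below 0.05 was reached by 6 of the 8 in ByJcl, beside 26.8% of all genes, and by 2 of the 8 in AJcl, beside 9.80% of all genes.

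**Figure D1:**
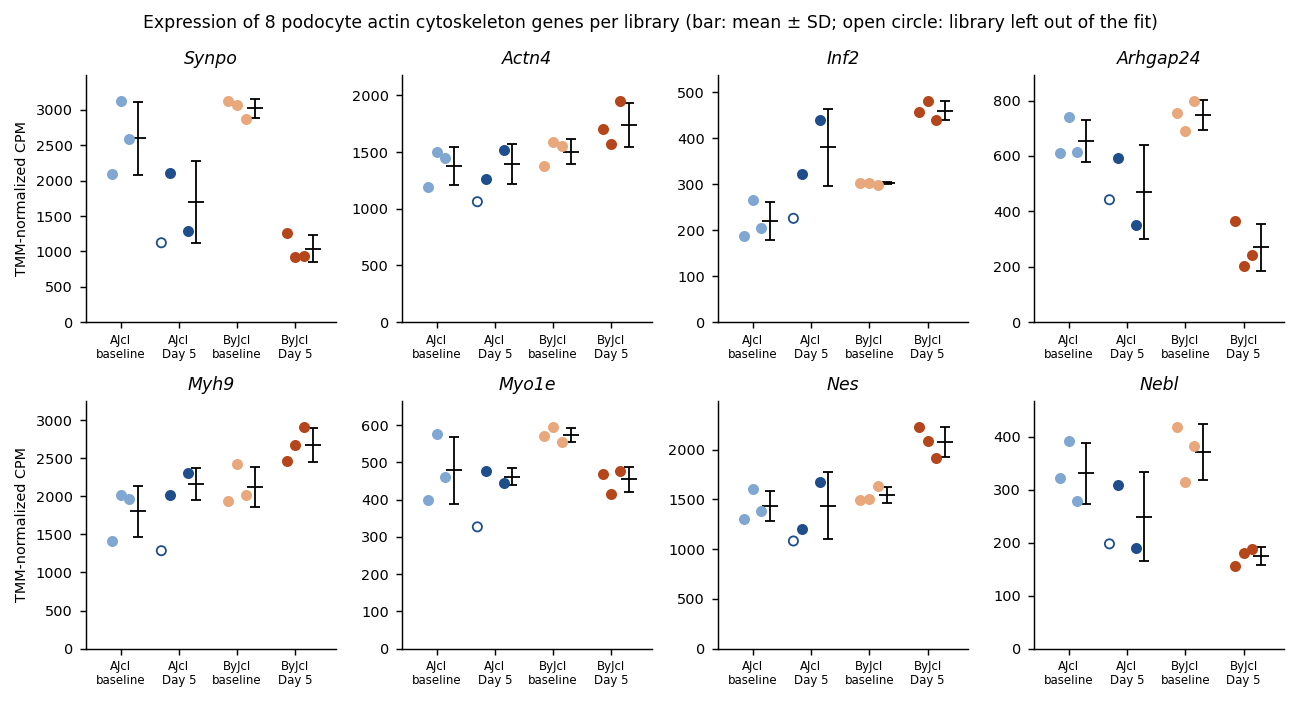
TMM-normalized CPM (vertical axes, from 0) of the 8 genes in each library of the 4 groups, with the mean ± SD of each group beside its points; the open circle is the excluded library AJcl Day 5 replicate 1, which does not enter the mean. The ByJcl Day 5 points of Synpo, Arhgap24 and Nebl sit below all baseline points, and those of Inf2 sit above them.

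Synpo encodes synaptopodin, an actin-associated protein of foot processes that binds α-actinin. Its level was 2091, 3125 and 2583 CPM in the AJcl baseline libraries and 3125, 3069 and 2869 CPM in the ByJcl baseline libraries. At Day 5 it was 2111 and 1293 CPM in AJcl and 1255, 925 and 936 CPM in ByJcl. All ByJcl Day 5 libraries lay below every baseline library of either substrain, whereas 1 of the 2 AJcl Day 5 libraries overlapped with the AJcl baseline. The mean in ByJcl went from 3021 ± 135 CPM (SD, n = 3) to 1039 ± 187 CPM (SD, n = 3), a log2 fold change of −1.54 (SE 0.211, 95% interval −2.01 to −1.08, adjusted p = 0.00234, edgeR). In AJcl the estimate was −0.61 (95% interval −1.13 to −0.09, adjusted p = 0.393, edgeR).

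Actn4 encodes α-actinin-4, which crosslinks actin filaments. Its level was 1188, 1497 and 1443 CPM in AJcl and 1375, 1585 and 1552 CPM in ByJcl at baseline. Day 5 levels were 1266 and 1517 CPM in AJcl and 1701, 1569.8 and 1949 CPM in ByJcl. The groups overlapped within each substrain, with log2 fold changes of 0.02 in AJcl (adjusted p = 0.982, edgeR) and 0.21 in ByJcl (95% interval −0.09 to 0.52, adjusted p = 0.366, edgeR).

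Inf2 encodes a formin that nucleates and elongates actin filaments and can also sever them. At baseline its level was 187, 266 and 205 CPM in AJcl and 303, 303 and 299.7 CPM in ByJcl. In the Day 5 libraries it was 322 and 439.6 CPM in AJcl and 458, 481 and 440.1 CPM in ByJcl. In each substrain every Day 5 library lay above every baseline library. The log2 fold change was 0.61 in ByJcl (SE 0.147, 95% interval 0.28 to 0.93, adjusted p = 0.0256, edgeR), from 302 ± 2.04 to 459.9 ± 20.6 CPM (SD, n = 3 each). The call in ByJcl was lost with all 12 libraries (adjusted p = 0.0882, edgeR) and in 4 of 11 fits that left out 1 library, namely each ByJcl baseline library and ByJcl Day 5 replicate 2 (adjusted p from 0.0737 to 0.0906, edgeR). In AJcl the estimate was 0.80 (SE 0.161, 95% interval 0.44 to 1.15) and did not pass (adjusted p = 0.0874, edgeR). It passed with DESeq2 (adjusted p = 0.000952), without a filter on low counts (adjusted p = 0.0379, edgeR) and without AJcl Day 5 replicate 2 (adjusted p = 0.0249, edgeR), whereas with all 12 libraries it was 0.57 (adjusted p = 0.353, edgeR).

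Arhgap24 encodes FilGAP, a GTPase-activating protein that inactivates Rac. Its level was 609, 740.2 and 614 CPM in AJcl and 757, 689 and 798 CPM in ByJcl at baseline. Day 5 levels were 591 and 349.8 CPM in AJcl and 365, 202 and 243 CPM in ByJcl. The Day 5 libraries lay below all baseline libraries in each substrain, by a wide gap in ByJcl and a narrow gap in AJcl. The log2 fold change was −1.47 in ByJcl (SE 0.233, 95% interval −1.98 to −0.96, adjusted p = 0.00403, edgeR) and −0.48 in AJcl (95% interval −1.04 to 0.09, adjusted p = 0.608, edgeR).

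Myh9 encodes the heavy chain of non-muscle myosin IIA, a contractile motor of actin bundles. Its level was 1417, 2023 and 1973 CPM in AJcl and 1937, 2424 and 2013 CPM in ByJcl at baseline. At Day 5 it was 2014 and 2313 CPM in AJcl and 2462, 2676 and 2908 CPM in ByJcl. The ByJcl Day 5 libraries lay above those at baseline, but the log2 fold change of 0.34 did not pass (95% interval −0.02 to 0.69, adjusted p = 0.208, edgeR). In AJcl it was 0.26 (adjusted p = 0.720, edgeR).

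Myo1e encodes a class I myosin that links membranes to actin. Its level was 399.8, 576 and 461 CPM in AJcl and 570.0, 594 and 556 CPM in ByJcl at baseline. In the Day 5 libraries it was 477 and 445 CPM in AJcl and 469.9, 415 and 478 CPM in ByJcl. The ByJcl Day 5 libraries lay below those of the ByJcl baseline and within the range of AJcl baseline. The log2 fold change was −0.34 in ByJcl (95% interval −0.63 to −0.04, unadjusted p = 0.0277, adjusted p = 0.132, edgeR) and −0.06 in AJcl (adjusted p = 0.943, edgeR).

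Nes encodes nestin, an intermediate filament protein that mature podocytes retain. Its level was 1308, 1604 and 1387 CPM in AJcl and 1493, 1509 and 1632 CPM in ByJcl at baseline. The Day 5 libraries had 1198 and 1677 CPM in AJcl and 2225, 2092 and 1918 CPM in ByJcl. Each ByJcl Day 5 library exceeded every other library of the 11, whereas the 2 AJcl Day 5 libraries lay on either side of the AJcl baseline. The log2 fold change in ByJcl was 0.43 (SE 0.145, 95% interval 0.11 to 0.75, adjusted p = 0.0838, edgeR) and was called with DESeq2 (adjusted p = 0.0181) and with edgeR on the compared groups alone (adjusted p = 0.0459) or without either AJcl Day 5 library (adjusted p = 0.0478 and 0.0481). In AJcl it was 0.01 (adjusted p = 0.995, edgeR), and this sign turned in 8 of 19 alternatives.

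Nebl encodes nebulette, an actin-binding protein of the nebulin family that is best known from the cardiac Z-disc. Its level was 323, 393 and 278 CPM in AJcl and 418, 314 and 382 CPM in ByJcl at baseline. At Day 5 it was 308 and 189.9 CPM in AJcl and 155, 179.6 and 189 CPM in ByJcl. The ByJcl Day 5 libraries were the lowest of the 11, and the AJcl Day 5 libraries fell on either side of the lowest AJcl baseline library. The log2 fold change was −1.09 in ByJcl (SE 0.192, 95% interval −1.51 to −0.67, adjusted p = 0.00657, edgeR) and −0.41 in AJcl (95% interval −0.88 to 0.06, adjusted p = 0.584, edgeR).

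The calls of Synpo, Arhgap24 and Nebl in ByJcl were kept in all 19 alternative fits of each gene, including those that left out 1 library, in which the highest adjusted p was 0.0161 for Synpo, 0.0217 for Arhgap24 and 0.0307 for Nebl (edgeR). In ByJcl the libraries of the groups did not overlap for 7 of the 8 genes, 3 higher and 4 lower, beside 33.4% of all genes (17.3% higher and 16.1% lower). In AJcl this held for 2 of the 8, Inf2 higher and Arhgap24 lower, beside 25.1% of all genes (13.6% higher and 11.5% lower). The median log2 fold change of the 8 was −0.06 in ByJcl and −0.03 in AJcl, where that of all tested genes was 0.01 and −0.01, so the higher and lower members offset each other in the median. The AJcl estimates of Synpo, Arhgap24 and Nebl rested on the 2 Day 5 libraries: without replicate 2 they were −1.02, −0.92 and −0.82, and without replicate 3 they were −0.31, −0.16 and −0.12. The study's text counts the baseline libraries as mice, whereas the sources used here do not say whether each Day 5 library came from a different animal, so the p-values measure the spread between these libraries.

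**Figure D2:**
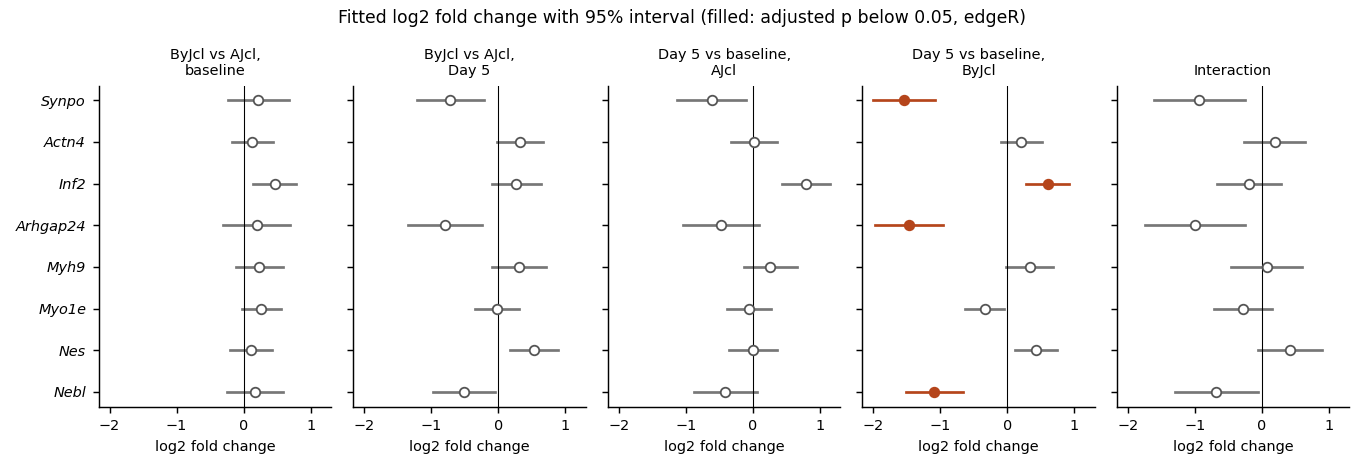
Fitted log2 fold changes (horizontal axes) of the 8 genes in the 5 contrasts, with 95% intervals; filled points have an adjusted p below 0.05 (edgeR). Filled points appear for Synpo, Arhgap24, Nebl and Inf2 in the ByJcl Day 5 contrast and nowhere else.

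The substrains were compared at each time point. At baseline the log2 fold change (ByJcl over AJcl) was above 0 for all 8 genes, from 0.11 for Nes to 0.46 for Inf2, with a median of 0.20 against 0.01 over all genes, and none was called, beside 0.159% of all genes (0.135% higher and 0.0235% lower). Of all genes 8735 of 17002 were above 0. Other lists were above 0 throughout as well, namely 13 of 13 podocyte reference genes (median 0.22), 8 of 8 mesangial genes (median 0.18) and 9 of 9 immune genes (median 0.69, 4 with an unadjusted p below 0.05, edgeR). Inf2 was the only one of the 8 whose libraries did not overlap at baseline, beside 14.5% of all genes (9.19% higher and 5.29% lower in ByJcl). The means of Inf2 were 302 ± 2.04 CPM in ByJcl and 219 ± 41.3 CPM in AJcl (SD, n = 3 each; 95% interval of the log2 fold change 0.14 to 0.78, unadjusted p = 0.00905, adjusted p = 0.530, edgeR). For the other 7 genes the adjusted p lay between 0.612 and 0.824 (edgeR), and an unadjusted p below 0.05 was reached by 1 of the 8, beside 8.34% of all genes.

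At Day 5 none of the 8 was called either, beside 0.165% of all genes (0.135% higher and 0.0294% lower), although 4 of 8 had an unadjusted p below 0.05 (edgeR), beside 14.0% of all genes. In ByJcl, Synpo (log2 fold change −0.71, adjusted p = 0.230, edgeR), Arhgap24 (−0.80, adjusted p = 0.220, edgeR) and Nebl (−0.51, adjusted p = 0.320, edgeR) had lower estimates than in AJcl. These rested on the 2 AJcl Day 5 libraries: without replicate 2 they were −0.31, −0.36 and −0.12, and without replicate 3 they were −1.02, −1.12 and −0.82. Nes had a higher estimate (0.53, 95% interval 0.17 to 0.89, adjusted p = 0.211, edgeR) and was called with DESeq2 (adjusted p = 0.0298). With 1 library left out, the estimate of Nes ran from 0.32 to 0.80. Arhgap24 was called with DESeq2 on all 12 libraries (adjusted p = 0.0322). Actn4, Myh9 and Inf2 had estimates of 0.32, 0.31 and 0.27, and Myo1e of −0.02. With 1 library left out, Actn4 ran from 0.20 to 0.46, Myh9 from 0.22 to 0.42 and Inf2 from 0.072 to 0.52. The Day 5 libraries did not overlap for 6 of the 8 (Actn4, Inf2, Myh9 and Nes higher, Synpo and Nebl lower in ByJcl), beside 33.4% of all genes (16.9% higher and 16.5% lower).

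Whether ADR acted differently in the substrains was tested with the substrain by treatment interaction, the log2 fold change in ByJcl minus that in AJcl. None of the 8 passed, and 0 of 17002 genes did with edgeR (1363 at an unadjusted p below 0.05, 8.02%), against 22 genes with DESeq2, none of them among the 8. The estimate was −0.93 for Synpo (SE 0.309, 95% interval −1.61 to −0.25, unadjusted p = 0.0118, adjusted p = 0.620, edgeR), −0.99 for Arhgap24 (95% interval −1.74 to −0.24, adjusted p = 0.620, edgeR) and −0.68 for Nebl (95% interval −1.30 to −0.05, adjusted p = 0.620, edgeR). They moved with the same 2 libraries, to −0.51, −0.54 and −0.26 without AJcl Day 5 replicate 2 and to −1.22, −1.30 and −0.97 without replicate 3. For Nes the interaction was 0.42 (95% interval −0.06 to 0.90, adjusted p = 0.643, edgeR), and it ran from 0.22 to 0.71 with 1 library left out. For Inf2, whose libraries were higher at Day 5 in both substrains, it was −0.19 (95% interval −0.67 to 0.29, adjusted p = 0.837, edgeR). The fall of Synpo, Arhgap24 and Nebl was thus called in ByJcl without a called difference from AJcl.

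In the excluded AJcl Day 5 library, scaled together with the other 11, Synpo was at 1123 CPM, Arhgap24 at 442 CPM and Nebl at 198 CPM, all within or below the range of the other AJcl Day 5 libraries. Actn4 (1062 CPM), Inf2 (226 CPM), Myh9 (1286 CPM), Myo1e (327 CPM) and Nes (1082 CPM) were all below both of them. With this library, the AJcl estimates of Actn4 and Nes turned from 0.02 to −0.12 and from 0.01 to −0.13.

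Levels were compared between the genes per kilobase of exon (union of exons, GENCODE). This union ranged from 4901 bases for Inf2 to 19568 bases for Nebl. The transcripts expressed here and the annotation used in counting are not known, so the order of the genes depends on these lengths. Nes was the highest of the 8 in all 4 groups, from 223 CPM per kb in AJcl at baseline to 324 CPM per kb in ByJcl at Day 5, and Nebl the lowest, from 19.0 to 8.93 CPM per kb in ByJcl. At baseline Synpo came second in each substrain (188 ± 37.4 in AJcl and 218 ± 9.73 CPM per kb in ByJcl, SD, n = 3), followed by Actn4 (160.3 and 175) and Myh9 (121 and 143 CPM per kb). In AJcl at baseline the libraries of Nes and Synpo overlapped, as did those of Synpo and Actn4 and those of Myo1e (60.3 to 86.9) and Arhgap24 (63.7 to 77.4 CPM per kb), while those of Myh9 and Myo1e were apart. In ByJcl at Day 5 Synpo had become the fifth of the 8 at 75.1 ± 13.6 CPM per kb (SD, n = 3). Inf2, which was seventh at baseline with 61.6 CPM per kb in ByJcl, lay at 93.9 ± 4.21 CPM per kb (SD, n = 3) at Day 5, and its lowest library (89.8) and the highest Synpo library (90.7) still touched.

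The 8 genes are spread over 8 chromosomes in GRCm39, the build of the counts (coordinates from GENCODE). Synpo lies at chr18:60726087-60793214 on the minus strand, Actn4 at chr7:28592672-28661839 on the minus strand and Inf2 at chr12:112555188-112581991 on the plus strand. Arhgap24 lies at chr5:102629213-103045803 on the plus strand, Myh9 at chr15:77644785-77726381 on the minus strand and Myo1e at chr9:70114632-70307048 on the plus strand. Nes lies at chr3:87878385-87887758 on the plus strand, and Nebl at chr2:17347467-17736275 on the minus strand. Exons of other genes on the opposite strand overlapped 5.3% of the exon bases of Actn4, 3.72% of those of Arhgap24 and 1.68% of those of Nebl, and reads there could be shared if strand was ignored in counting. Of all stretches of 100 bases in the transcripts of the 8 genes, the only ones found in another gene were 23 of 15947 in Myh9, shared with Myh10.

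Podocyte reference genes that are not among the 8 moved in the same contrast. Of 13 tested, 9 fell and 1 rose in ByJcl, beside 4.83% and 5.75% of all genes, with a median log2 fold change of −1.09. In AJcl 0 were called, beside 0.312% of all genes, with a median of −0.26 (smallest adjusted p = 0.0913, for Cdkn1c, edgeR). Among those that fell were Thsd7a, a podocyte membrane protein (log2 fold change −2.67, from 970 ± 92.8 to 152 ± 33.4 CPM, SD, n = 3 each, adjusted p = 0.00163, edgeR), and the transcription factor gene Dach1 (−1.26, adjusted p = 0.00409, edgeR). Nphs1 (nephrin, the slit diaphragm adhesion molecule) fell by 1.28 on the log2 scale (SE 0.239, adjusted p = 0.00854, edgeR) and Wt1 (a podocyte transcription factor) fell by 1.09 (SE 0.198, adjusted p = 0.00756, edgeR). The cell cycle inhibitor gene Cdkn1c was the one that rose (1.01, adjusted p = 0.00670, edgeR). Each of the 8 genes was also expressed relative to these genes, as its log2 CPM minus the mean log2 CPM of the 13 in the same library. This reference itself fell by 0.97 in ByJcl, so a gene whose level did not change has a higher ratio. Of the 13, Cd80 was near 0, with group means from 0.451 to 0.861 CPM and a coefficient of variation of 32.6% to 72.1% within groups, and it weighs as much as any other gene in the mean. The ratios were therefore also taken without Cd80, where the reference fell by 1.05, and with Nphs1 and Wt1 as the only reference genes, where it fell by 1.21. Cdkn1c, which rose, remained in the reference without Cd80 and was absent from that of Nphs1 and Wt1.

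Relative to the 13 genes, Synpo and Arhgap24 were lower at Day 5 in ByJcl, by an amount that depended on the reference genes, whereas Nebl overlapped with its baseline. In ByJcl, Synpo went from 2.27 ± 0.12 to 1.69 ± 0.05 (log2 ratio, SD, n = 3 each), a difference of −0.58, and Arhgap24 from 0.26 ± 0.04 to −0.28 ± 0.21, a difference of −0.54. For each of them all Day 5 libraries lay below all baseline libraries (two-sided exact permutation p = 0.1, the smallest that 3 against 3 allows), beside 0.794% of all genes with a lower ratio and no overlap. Without Cd80 the differences were −0.51 and −0.46, and with Nphs1 and Wt1 alone they were −0.34 and −0.30, again without overlap (exact permutation p = 0.1 each). Nebl differed by −0.11 with overlapping libraries (exact permutation p = 0.9), by 0.13 without ByJcl Day 5 replicate 1, and by −0.035 and 0.13 with the other references. The Day 5 ratios of Nebl ran from −1.36 to −0.56, on either side of its baseline ratios.

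The other 5 genes had a higher ratio at Day 5 in every ByJcl library, as did 72.4% of all genes. The difference was 1.58 for Inf2, 1.40 for Nes, 1.31 for Myh9, 1.18 for Actn4 and 0.63 for Myo1e (exact permutation p = 0.1 each), whereas the levels themselves overlapped for Actn4 and lay below those of the baseline for Myo1e. In AJcl, Inf2 had a higher ratio (0.995) and Synpo and Arhgap24 lower ratios (−0.43 and −0.32) without overlap of the libraries (exact permutation p = 0.2 each, the smallest that 3 against 2 allows), beside 15.0% of all genes higher and 2.29% lower, and the remaining 5 overlapped. With 1 library left out, the AJcl differences ran from 0.56 to 1.43 for Inf2, −0.58 to −0.29 for Synpo and −0.49 to −0.15 for Arhgap24. At baseline Inf2 was again the only gene of the 8 without overlap, with a ratio 0.18 higher in ByJcl (exact permutation p = 0.1), beside 1.56% of all genes higher and 15.1% lower.

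Between the substrains at Day 5 the reference itself differed by −0.47 (ByJcl minus AJcl), so a gene of equal level in both has a higher ratio in ByJcl. The ratio was higher in ByJcl without overlap for Nes (1.02), Actn4 (0.79), Myh9 (0.78), Inf2 (0.76) and Myo1e (0.45), beside 35.2% of all genes. The level of Myo1e itself differed by −0.02. With 1 library left out these differences ran from 0.57 to 1.47 for Nes, 0.46 to 1.13 for Actn4, 0.48 to 1.09 for Myh9, 0.33 to 1.19 for Inf2 and 0.29 to 0.60 for Myo1e, the lowest without AJcl Day 5 replicate 2 and the highest without replicate 3. The ratio of Synpo was lower without overlap (−0.21, and −0.36 to −0.066 with 1 library left out), beside 2.14% of all genes (exact permutation p = 0.2 for each of the 6, the smallest that 3 against 2 allows), but 0.054 with Nphs1 and Wt1 as reference. Arhgap24 (−0.32) and Nebl (−0.0039) overlapped. These tests formed a family of 32, and none could pass 0.05 in groups of this size.

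**Figure D3:**
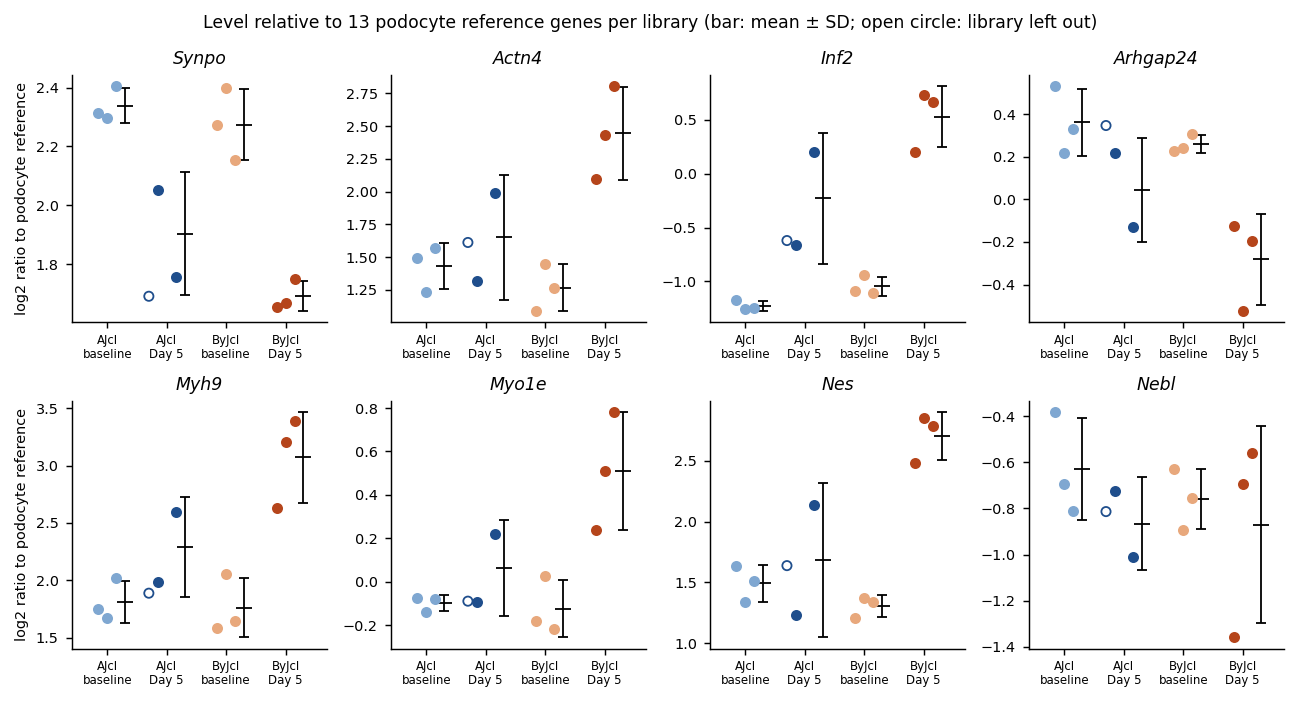
Log2 ratio of each gene to the mean of 13 podocyte reference genes (vertical axes, each with its own range) per library in the 4 groups, with mean ± SD; the open circle is the excluded library. In ByJcl the Day 5 points lie above the baseline points for Actn4, Inf2, Myh9, Myo1e and Nes, below them for Synpo and Arhgap24, and among them for Nebl.

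Libraries of the same group also differed in their podocyte reference level, and over the 11 libraries Synpo and Arhgap24 had the highest correlation with it of the 8 genes. With the group means removed, the correlation with the reference over 11 libraries was r = 0.920 (Pearson) and 0.909 (Spearman) for Synpo (exact permutation p = 0.0162 and 0.0139, adjusted over the 8 correlations to 0.0648 and 0.0556). For Arhgap24 it was r = 0.855 (Pearson) and 0.845 (Spearman) (exact permutation p = 0.0139 and 0.00926, adjusted to 0.0648 and 0.0556). Without the 2 libraries farthest from the median reference level, ByJcl Day 5 replicates 2 and 3, r was 0.906 and 0.830. That left a single library in the ByJcl Day 5 group, equal to its own group mean. These values of r thus rested on the other groups alone. Over the 11 libraries neither correlation passed after adjustment, but that of Synpo did with all 12 libraries (adjusted p = 0.0432, exact permutation). Without Cd80 r was 0.911 for Synpo and 0.948 for Arhgap24 (adjusted p = 0.0833 and 0.0556, exact permutation), and with Nphs1 and Wt1 as reference it was 0.943 and 0.948 (adjusted p = 0.0463 each, exact permutation).

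The other 6 genes had a lower r over the 11 libraries. Myo1e had r = 0.688 (Pearson) and 0.582 (Spearman) (exact permutation p = 0.0995 and 0.174). Nebl had r = 0.427 (Pearson) and 0.509 (Spearman) (exact permutation p = 0.359 and 0.319). Pearson r rose to 0.840 and 0.788 without the same 2 libraries, the first then above that of Arhgap24. The ByJcl Day 5 group no longer contributed to these higher values. Actn4, Myh9, Nes and Inf2 had r between 0.01 and 0.20, with adjusted p = 0.988 each (exact permutation), and r of all 4 was below 0 with either other reference. Leaving out single libraries moved these values, and r of Nes was 0.89 without AJcl Day 5 replicate 2. The AJcl Day 5 group then held a single library and no longer contributed to r. The libraries compared hold 2 or 3 per group, which allows 432 arrangements.

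**Figure D4:**
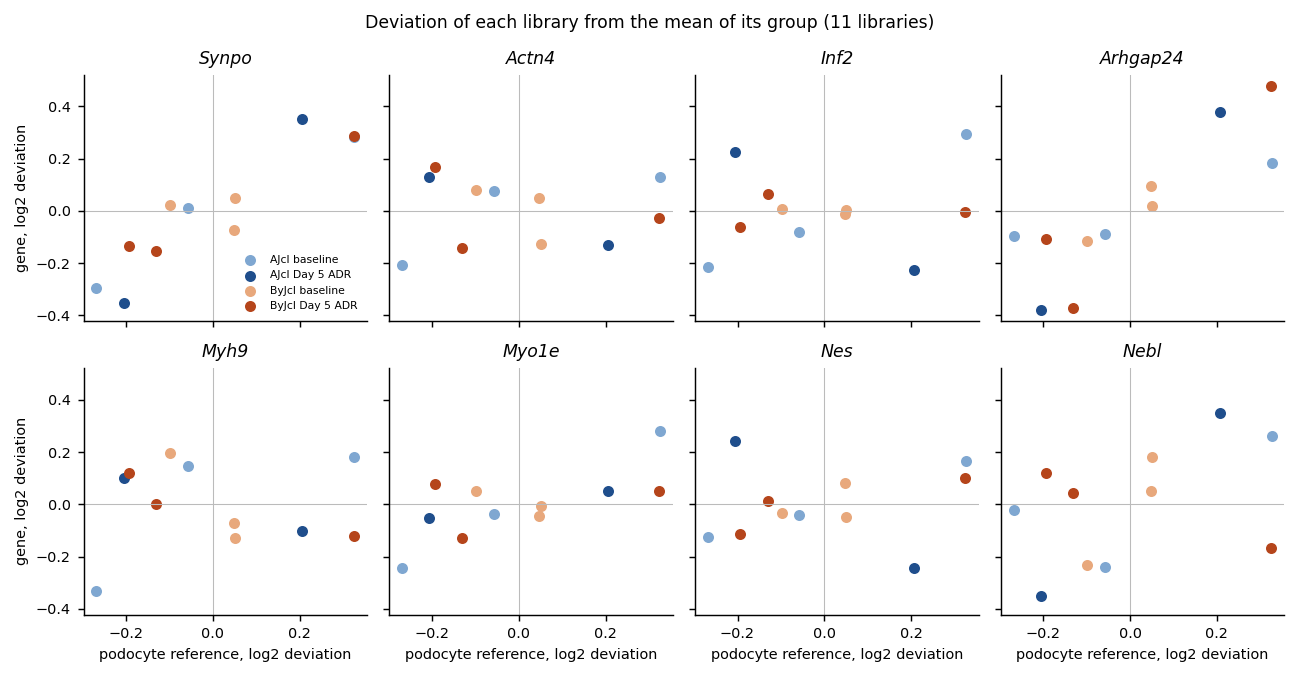
Deviation of each of 11 libraries from its group mean, with the podocyte reference on the horizontal axes and the gene on the vertical axes (both log2). Points of Synpo and Arhgap24 line up from lower left to upper right (r = 0.920 and 0.855), and those of Actn4 and Myh9 scatter (r = 0.01 and 0.02).

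Pairwise levels of the 8 genes over the 11 libraries are given as a description, since the libraries share their groups and their podocyte content. Synpo correlated with Arhgap24 (r = 0.977) and Nebl (r = 0.918), and Arhgap24 with Nebl (r = 0.898). Among the others, Actn4 and Myh9 had r = 0.879, Inf2 and Myh9 r = 0.852 and Actn4 and Nes r = 0.796. Synpo and Inf2 had r = −0.741. Of 10067 genes with a mean of at least 10 CPM, those with the pattern most like each member over the 11 libraries were Magi2 and Vtcn1 for Synpo (r = 0.996 and 0.994), Ddn and Ephb1 for Arhgap24 (0.996 and 0.990), Slain2 and Rora for Nebl (0.982 each) and Arhgef17 and St3gal1 for Myo1e (0.974 and 0.970). They were Crim1 and Col4a5 for Inf2 (0.973 and 0.970), Homer3 and Cmtm3 for Nes (0.973 and 0.959), Tln1 and Adgrf5 for Myh9 (0.987 and 0.967) and Mex3d and Ephb4 for Actn4 (0.930 and 0.917).

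The wider actin machinery was read from 80 other genes, of which 78 were in the tables and 77 were tested. In ByJcl after ADR 11 of the 77 rose and 9 fell, with a median log2 fold change of 0.16. Over all genes 5.75% rose and 4.83% fell in this contrast, and these shares also stand beside the lists below. In the other 4 contrasts 0 were called with edgeR. An unadjusted p below 0.05 (edgeR) was reached by 5, 32, 9 and 19 at baseline, at Day 5, in AJcl and in the interaction. The shares over all genes there were 8.34%, 14.0%, 9.80% and 8.02%. The genes of smallest adjusted p there were Pfn2 at baseline (0.515), Actg1 at Day 5 (0.116), Pak1 in AJcl (0.118) and Actg1 in the interaction (0.620), all with edgeR.

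Among 15 tested paralogs of the 8 genes, 3 rose and 1 fell in ByJcl. Vim, the intermediate filament vimentin, rose by a log2 fold change of 1.15 (adjusted p = 0.00255, edgeR), Actn1, the α-actinin closest to Actn4, by 0.99 (adjusted p = 0.0130, edgeR) and Lasp1, a relative of Nebl, by 0.51 (adjusted p = 0.0141, edgeR). Myo1d, a class I myosin, fell by 0.64 (adjusted p = 0.0408, edgeR).

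In the actin assembly list 4 of 23 rose and none fell, with Actg1 (cytoplasmic γ-actin, 0.83), Cfl1 (cofilin, which severs filaments, 0.58) and Pfn1 (profilin, which delivers actin monomers, 0.55) first by adjusted p (0.00937, 0.0209 and 0.0303, edgeR). The remaining call was Wasl (0.33), an activator of branched actin nucleation. Of 7 genes for myosin II light chains and their phosphatase, the light chain genes Myl12a (1.37, adjusted p = 0.00163, edgeR) and Myl12b (0.62, adjusted p = 0.00658, edgeR) rose and the kinase gene Mylk fell by 0.44 (adjusted p = 0.0432, edgeR). Myl12a and Myl12b encode near-identical regulatory light chains, so reads could be split between them.

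Of 14 membrane and junction linkers, 2 rose, Msn (moesin, 0.49) and Pdlim2 (0.43), and 5 fell. Those with the smallest adjusted p were Magi2 (−2.38, adjusted p = 0.00142, edgeR), a slit diaphragm scaffold, Ablim3 (−1.11, adjusted p = 0.00325, edgeR), a LIM domain protein that binds actin, and Cd2ap (−0.94, adjusted p = 0.00726, edgeR), which couples the slit diaphragm to actin. Coro2b and Kank1 were the other two.

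**Figure D5:**
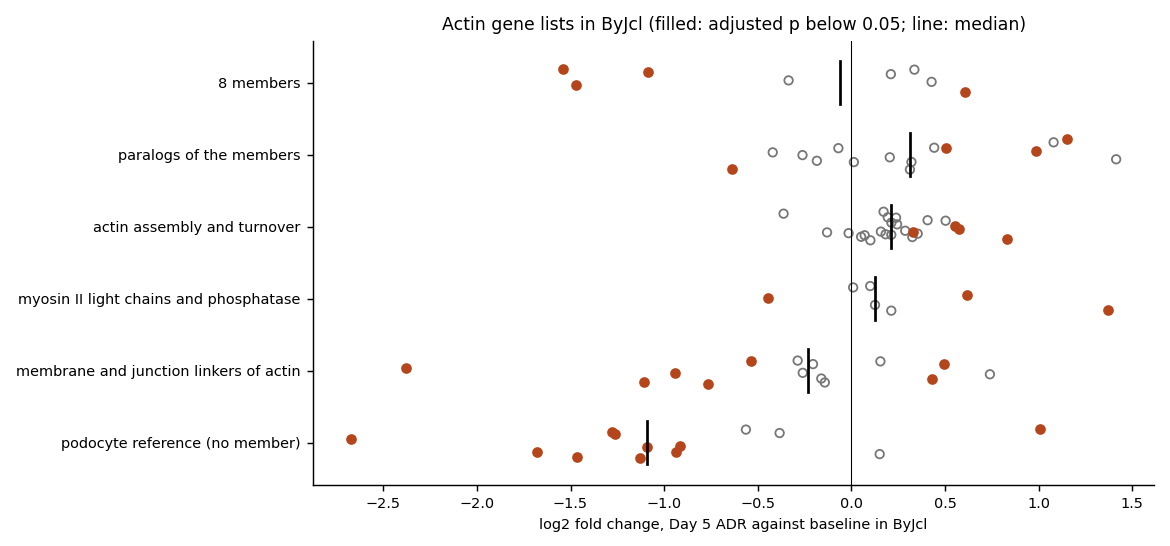
Log2 fold change of Day 5 over baseline in ByJcl (horizontal axis) for the 8 genes, 4 lists of other actin genes and the podocyte reference; each point is a gene, filled points have an adjusted p below 0.05 (edgeR) and the bar is the list median. Filled points of the assembly list lie above 0 and those of the podocyte reference lie below 0 apart from Cdkn1c.

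Markers of other cells moved with these contrasts in places. In ByJcl after ADR the endothelial genes Ehd3 (−0.81) and Flt1 (−0.54) fell among 10 tested and the mesangial gene Serpine2 rose (0.87) among 8, of which 5 had estimates below 0 (median −0.07). The smooth muscle gene Tagln (1.31) rose among 6, the parietal epithelial genes Cd44 (1.02) and Cldn1 (0.77) among 5 and the macrophage gene Cd68 (1.17) among 9, while 6 of these 9 immune genes had estimates below 0 (median −0.39) and none of the 12 proximal tubule and 7 distal nephron markers was called (smallest adjusted p = 0.0936 for Cyp4b1 and 0.112 for Slc4a1, edgeR). Tagln was also higher in ByJcl than in AJcl at Day 5 (1.15, adjusted p = 0.0436, edgeR). Of the 9 immune genes, 8 had higher estimates and 1 a lower estimate in ByJcl at Day 5, with a median of 1.075. Of these 9, 4 had an unadjusted p below 0.05 and 0 were called (edgeR). Summed smooth muscle markers ran from 576 to 605 CPM at baseline and from 707 to 859 CPM at Day 5 in ByJcl, where the mean of Tagln alone went from 127 to 314 CPM and that of Acta2 from 105 to 113 CPM. In ByJcl summed parietal markers ran from 67.6 to 86.3 and from 88.4 to 138 CPM and summed immune markers from 68.2 to 115 and from 70.8 to 127 CPM. Summed endothelial markers ran from 15111 to 17017 CPM and from 12797 to 13806 CPM, and summed mesangial markers from 2706 to 3240 CPM and from 2837 to 3932 CPM. The part of these cells in the levels of Inf2, Nes, Myh9 and Actn4 was not tested.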

How the data were processed

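RNA-seq was performed on glomerulus-enriched kidney preparations in 12 libraries of 2 substrains at 2 states. Per the labels and methods, the authors prepared poly(A)-selected, strand-specific libraries, trimmed the reads with Trimmomatic after FastQC, aligned them to GRCm39 with STAR and deposited whole-number counts per gene from featureCounts, without normalization or pooling. The annotation and the strand setting of the counting are not given in the sources used here. Groups and replicate numbers were taken from the sample titles.

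Counts were analysed with edgeR 4.0.16 (limma 3.58.1) in R 4.3.3. Genes were kept with filterByExpr (17002 genes), libraries were scaled with TMM, and 1 quasi-likelihood model with 1 coefficient per group was fitted to 11 libraries (7 residual degrees of freedom, common dispersion 0.0521). The 5 contrasts named in the report were tested, Benjamini-Hochberg adjustment was applied over all tested genes, and an adjusted p below 0.05 was called. Intervals are at 95%. Single values were compared by two-sided exact permutation tests. The pipeline was tested on simulated counts. An alternative podocyte reference and 1 list of regulators are not reported here. Alternatives were DESeq2 1.42.0, RLE size factors, other filters, all 12 libraries, a replicate block, the compared groups alone and leaving out each library. DESeq2 on all 12 libraries, the podocyte reference without Cd80 and that of Nphs1 and Wt1 were chosen after seeing the data.

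The 8 genes and all lists were chosen with earlier results of these data known. All 8 genes are named, and of each list the 3 calls per direction with the smallest adjusted p, or the gene of smallest adjusted p where there was no call, in the contrasts described for that list, and the 2 genes most like each member. Permutation tests and plots used Python 3.11.15 with scipy 1.17.1, pandas 2.3.3 and matplotlib 3.10.9. Replicate numbers are those of the labels. Libraries with the same number were checked for shared deviations after removal of group means, in 15 pairs. Their r ran from −0.39 to 0.53 and exceeded 0.1 in 5 of them. Libraries with different numbers were not compared, so this check cannot decide whether the numbers mark pairs. The main fit did not take them as pairs.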

Additional observations from a re-analysis of the deposited data

How the results depend on the processing

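The 3 falls in ByJcl (Synpo, Arhgap24 and Nebl) kept their call and direction in all alternatives. Members called in ByJcl ranged from 3 to 5 when 1 library was left out. All genes called in ByJcl (1800) were 2694 with DESeq2, 1197 with all 12 libraries and 680 to 2056 when 1 library was left out. At baseline the 27 calls became 101 with DESeq2, 69 with DESeq2 on 12 libraries, 15 with the compared groups alone, and 12 to 29 when 1 library was left out. At Day 5 the 28 calls became 535 with DESeq2, 911 with DESeq2 on 12 libraries, 56 without a filter, 72 with all 12 libraries, 6 with the compared groups alone and 9 to 218 when 1 library was left out, and members called were 1 with DESeq2 (Nes) and 2 with DESeq2 on 12 libraries (Arhgap24 and Nes). In AJcl the 53 calls became 301 with DESeq2, 326 with DESeq2 on 12 libraries, 99 without a filter, 33 with the compared groups alone and 11 to 180 when 1 library was left out, and members called were 1 (Inf2) with DESeq2 and without a filter and 0 to 1 when 1 library was left out. The interaction had 0 calls with edgeR, 22 with DESeq2, 7 with DESeq2 on 12 libraries and 0 to 5 when 1 library was left out. With a replicate block, which adds a term for the replicate number, AJcl had 26 calls and no member call changed. The causes of these differences were not tested.

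Signs turned in 24 alternatives of single genes in the contrasts, 20 of ratios and 18 of correlations. With all 12 libraries, with the replicate block and with DESeq2 on 12 libraries, Myo1e at Day 5 was 0.12, 0.017 and 0.13, Actn4 in AJcl was −0.12, −0.044 and −0.10, and Nes in AJcl was −0.13, −0.013 and −0.12. Inf2 in the interaction was 0.047 with all 12 libraries and 0.037 with DESeq2 on them. With 1 library left out, Myo1e at Day 5 ran from −0.068 to 0.041, and in AJcl Actn4 ran from −0.13 to 0.12, Nes from −0.27 to 0.21 and Myo1e from −0.18 to 0.099. In the interaction Myh9 ran from −0.016 to 0.25 and Inf2 from −0.37 to 0.072.

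With 1 library left out, the baseline ratio ran from −0.20 to 0.050 for Myh9 and −0.10 to 0.022 for Myo1e, the Day 5 ratio of Nebl from −0.16 to 0.24, and the AJcl ratio from −0.12 to 0.56 for Actn4 and −0.26 to 0.64 for Nes. In ByJcl that of Nebl ran from −0.27 to 0.13, above 0 without Day 5 replicate 1. Within-group correlations with the podocyte reference ran, with 1 library left out, from −0.41 to 0.26 for Actn4, −0.43 to 0.70 for Inf2, −0.66 to 0.25 for Myh9 and −0.16 to 0.89 for Nes. Where an AJcl Day 5 library was left out, that group no longer contributed to r. Without Cd80 in the reference, the baseline ratio was 0.0089 for Synpo, 0.021 for Myh9 and 0.048 for Myo1e, the Day 5 ratio of Nebl was 0.048, and r was −0.13 for Actn4, −0.043 for Inf2, −0.19 for Myh9 and −0.083 for Nes. With Nphs1 and Wt1 as reference, the baseline ratios were 0.022, 0.034 and 0.061, the Day 5 ratio was 0.054 for Synpo and 0.26 for Nebl, that of Nebl in ByJcl was 0.13, and r was −0.083, −0.032, −0.12 and −0.075.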
